A study of Mus musculus with 11 samples.

Results

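The messages described here encode splicing factors and RNA helicases. They were chosen by gene symbol: the SR proteins (Srsf genes), the hnRNP proteins (Hnrnp genes), the proteins of the small nuclear ribonucleoproteins (Snrp genes), the subunits of splicing factor 3 (Sf3a and Sf3b genes), the PRP factors (Prpf genes), the DEAD-box helicases (Ddx genes), and the cold-inducible proteins Cirbp and Rbm3. Of 14351 genes with a named probe set, 79 matched this rule, and 69 of these were bright enough to test. The other 10 read 1.76 to 5.01 log2 over the 11 arrays and were Ddx3y (2.93 to 3.61), the Y-linked relative of Ddx3x, Ddx4, Ddx11, Ddx19b, Ddx25, Ddx49, Ddx55, Prpf4, Sf3a2 and Srsf12. Another 26 protein-coding genes of the rule, among them Rbm3, Hnrnpa1, Hnrnpk, Ddx58 and Srsf5, had no probe set that could be matched by name and were not analysed here.

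RNA was taken from lungs of Balb/c mice, either wild type or doubly knocked out (4ebp1-/-/4ebp2-/-) for Eif4ebp1 and Eif4ebp2, which encode the translational repressors 4E-BP1 and 4E-BP2. Mice of both genotypes ate the purified diet AIN-93M from 5 weeks of age to the end of the experiment. The wild-type mice were bought from a commercial breeder and the knockout mice came from another laboratory, so genotype and source of the mice cannot be told apart. The knockout is of the whole animal as far as the labels state, and neither the sex of the mice nor whether each array is its own mouse is given, so the p-values cover array to array spread and may hold a technical part. Total RNA was hybridised to 3 arrays per genotype, and polysomal RNA to 2 arrays for wild type and 3 for knockout. Polysomal RNA is the pool of fractions 7 to 10 of 10 from a gradient, the messages carrying 3 or more ribosomes. Values are in log2 units after the authors' GCRMA normalization, in which background is corrected and arrays summarised together are put on 1 scale. Whether total and polysomal arrays were summarised together is not given. Their lowest values differed, at 0.733 to 0.744 on total arrays and 0.849 to 0.866 on polysomal arrays. Every polysomal minus total difference below assumes a common scale, which is not established. After such scaling a polysomal value is relative to the other messages on its array. It is not the share of a message that is bound by ribosomes.

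Splicing removes introns from the nuclear transcript in a spliceosome built anew on each intron. The U1 and U2 particles mark the splice site and the branch point, with splicing factor 3 as the part of U2 that grips the branch point. The tri-snRNP with its PRP factors then joins and the catalytic centre forms. Sm proteins make the ring at the core of most of these particles, and SR and hnRNP proteins bind exons and introns and set which sites are used. DEAD-box helicases spend ATP to remodel RNA and protein at many of these steps, and also in mRNA export, in the start of translation, in storage and decay of messages, and in the nucleolus, where ribosomes are made. Several SR and hnRNP genes are known to hold down their own messages through exons that bring on nonsense-mediated decay. 4E-BP proteins hold the cap-binding factor eIF4E when the kinase mTOR is inactive, and messages whose cap is followed at once by a run of pyrimidines are known to depend strongly on that control.

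The sequence around the annotated start is shown for 5 members with large differences in the results below and for Ddx42 and Ddx50, which hold a pyrimidine start, because a pyrimidine run at the start is the feature best known to be read by this pathway. Each line gives 30 bases in RefSeq's GRCm38.p6, with 15 bases before an annotated start, and the start is the next base. Cirbp and Prpf19 each have another annotated start, at chr10:80168171 and chr19:10898645, which is not printed.
Cirbp (chr10:80167824-80167853, plus strand): cttgcgctccccctcgcactcgcgccttag
Prpf19 (chr19:10895216-10895245, plus strand): ttcctgctcggttgcatgctgggaaagggc
Srsf10 (chr4:135856056-135856085, plus strand): gtgggagggggcctggaggcgggagccaag
Prpf39 (chr12:65036319-65036348, plus strand): cggcgcgtgcgcagtgtgatcccgaagagg
Snrpe (chr1:133610266-133610295, minus strand): ttccgtttccgggtcttgcttccggaagtc
Ddx42 (chr11:106230651-106230680, plus strand): ttttttttttttttgCCTCTTTCCagtaat
Ddx50 (chr10:62649739-62649768, minus strand): ccaaagctctttgccCCTTTgaattttact
The capitals mark a C at the annotated start with the run of C or T that follows it, where that run is at least 4 bases long. Of 61 tested members with a start in the table, Ddx42 and Ddx50 held such a start, each at 1 of its 2 annotated starts, which is 3.28% of the members against 2.95% of 6478 tested genes. The core of a heat shock element, GAA and TTC separated by NN on either strand, lay between 250 bases before and 50 bases after a start of 7 of the 61 members (11.5%, against 6.82% of the tested genes). These matches describe the letters of the annotation and not bound sites, and array probes do not show which start was used in lung.

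The lung arrays carried high levels of alveolar markers. The summed level of 10 alveolar epithelial genes was 17.21 to 17.63 log2 in wild-type and 17.88 to 17.91 in knockout total RNA. The knockout arrays all had less Eif4ebp2 than the wild-type arrays of their RNA kind (by 1.90 in total and 2.07 in polysomal RNA, SE 0.25 and 0.28). Eif4ebp1 fell by 0.40 (SE 0.11) and 0.67 (SE 0.13), and whether its probes lie in the deleted part is not known here. Marker sums of other cell types moved with genotype. The sum of 10 cell cycle genes was 10.57 to 10.95 in wild-type and 11.61 to 11.80 in knockout total RNA, and 10.80 to 10.998 and 11.68 to 11.97 in polysomal RNA. In total RNA the sum of 11 endothelial genes was 14.38 to 14.49 and 14.95 to 15.01, and that of 9 stromal and muscle genes 13.88 to 14.12 and 14.78 to 14.82, while on polysomes both sums overlapped between genotypes. The sum of 10 macrophage genes was lower in knockout. It was 14.22 to 14.57 in wild type and 13.90 to 14.15 in knockout total RNA, and 15.63 to 15.65 and 14.88 to 15.12 on polysomes. Such a sum is carried by its brightest genes, and single genes went both ways. Of 9 tested macrophage genes 4 rose and 3 fell in total RNA, where 17.2% and 5.97% of all tested genes did. On polysomes none rose and 3 fell, where 8.36% and 6.77% of all tested genes did. The sum of 4 red cell genes was higher in knockout, at 7.91 to 8.43 and 9.56 to 10.36 in total RNA and at 10.43 to 10.44 and 11.76 to 12.87 on polysomes. The part of these shifts in the results below was not tested, and in lung tissue a change in the share of a cell type cannot be told apart from a change of RNA per cell.

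Most messages of splicing factors and helicases stood higher in polysomal than in total RNA, in both genotypes. In wild type 45 of 69 tested members were higher on polysomes, 13 were lower and 11 did not pass (limma, Benjamini-Hochberg adjusted p under 0.05), where 44.5% of all tested genes were higher and 27.9% lower, together 72.4%. The members' median difference was 0.90 against 0.22 for all tested genes. In knockout 47 were higher, 4 lower and 18 did not pass, against 39.5% higher and 25.7% lower, together 65.2%, among all tested genes, with medians of 0.86 and 0.13. Of the members, 41 were higher in both genotypes and 4 lower in both. The arrays of the groups compared did not overlap for any member that passed. How often this holds among all tested genes was not counted, so it does not set these members apart. Ddx41, Ddx56 and Hnrnpl reached the minimum for testing on no total array and so entered through the polysomal arrays, where they are high. Of the 45 members higher on wild-type polysomes, 9 had a wild-type total mean under 6. Quantile normalization lowered the median of all tested genes by 0.16 in the wild-type comparison, and the members' median to 0.61.

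Cirbp, which binds RNA in cells exposed to mild cold and is known to follow the daily rhythm of body temperature, showed the widest gap. Its total RNA values were 4.55, 4.12 and 5.87 in wild type and 4.96, 5.52 and 5.04 in knockout. Its polysomal values were 9.85 and 9.07 in wild type and 10.05, 9.83 and 9.60 in knockout. Every polysomal array lay above every total array, while the genotypes overlapped in both RNA kinds. Several of the total values lie under 5, the minimum for testing, so the size of the gap is less well measured. The polysomal minus total difference was 4.61 in wild type (SE 0.45, n = 2 and 3 arrays) and 4.65 in knockout (SE 0.40, n = 3 and 3), with limma adjusted p of 8.2e-06 and 5.7e-06. The genotype difference of Cirbp did not pass in total RNA (0.33, SE 0.40) or in polysomal RNA (0.37, SE 0.45). Without wild-type total array 3, the highest of its group, the total RNA difference was 0.84 (limma adjusted p = 0.046).

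**Figure D1:**
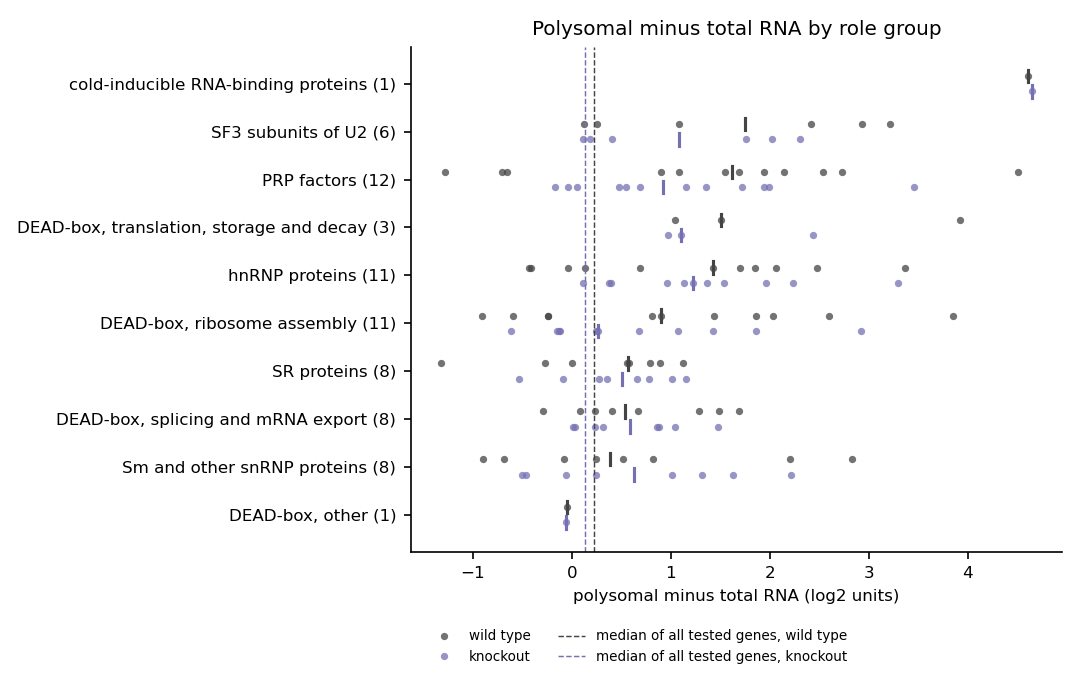
Polysomal minus total RNA in log2 units (horizontal axis) of the 69 tested members, 1 point per member and genotype, by role group with the number of members in brackets. Short bars are group medians and dashed lines the medians of all tested genes. SF3 subunits, PRP factors and hnRNP proteins had wild-type medians of 1.75, 1.62 and 1.42, against 0.22 for all tested genes.

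The role groups had different medians. Over all tested genes 44.5% were higher on wild-type polysomes and 27.9% lower, with a median of 0.22. Of 6 tested SF3 subunits 4 were higher on wild-type polysomes and none lower, with a median of 1.75. Of 12 PRP factors 9 were higher and 3 lower (median 1.62), and of 11 hnRNP proteins 7 were higher and 2 lower (median 1.42). The 3 helicases of translation, storage and decay, Ddx1, Ddx3x and Ddx6, were all higher (median 1.51). SR proteins had 5 of 8 higher and 2 lower (median 0.57), and the 8 splicing and export helicases 5 higher and 1 lower (median 0.54). Of the 11 helicases of ribosome assembly 7 were higher and 3 lower (median 0.90), and of the 8 snRNP proteins 4 were higher and 2 lower (median 0.38). The single helicase outside these groups, Ddx59, passed in no comparison. The groups are small, and these medians and counts were not tested against each other or against all genes.

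Prpf19, the ubiquitin ligase at the heart of the complex that activates the spliceosome, read 5.22, 5.97 and 5.30 in wild-type total RNA and 9.85 and 10.15 on wild-type polysomes, a difference of 4.50 (SE 0.35, limma adjusted p = 1.8e-06). Ddx6, a helicase of storage granules and decapping, read 8.77, 8.27 and 8.53 in total RNA and 12.48 and 12.40 on polysomes, a difference of 3.92 (SE 0.26). For both, every polysomal array lay more than 3 log2 units above every total array of wild type. Ddx56, a nucleolar helicase, differed by 3.85 (SE 0.29) and Hnrnpl, which binds CA repeats, by 3.37 (SE 0.29). Their wild-type total values, 2.94 to 3.87 and 3.51 to 4.26, lay near 2.43 to 2.49, the array medians of probe sets too dim to test, so the size of these gaps is poorly measured. Sf3b3 and Sf3b5, subunits of the branch point complex, differed by 3.22 (SE 0.13) and 2.93 (SE 0.15), and Snrpd3, a protein of the Sm ring, by 2.83 (SE 0.20).

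The members lower on polysomes were fewer and their gaps smaller. Srsf10, an SR-like protein that is dephosphorylated and represses splicing on heat shock, read 9.07, 9.03 and 8.82 in wild-type total RNA and 7.49 and 7.80 on polysomes, a difference of -1.33 (SE 0.16, limma adjusted p = 4.4e-05). Prpf39, known from yeast as a part of the U1 particle, read 7.05, 6.93 and 6.51 against 5.67 and 5.42, a difference of -1.29 (SE 0.20, limma adjusted p = 0.00024). Polysomal arrays of both genes lay below all wild-type total arrays. The Sm ring proteins Snrpe and Snrpg differed by -0.90 (SE 0.13) and -0.69 (SE 0.14), the ribosome assembly helicases Ddx52 and Ddx50 by -0.91 (SE 0.13) and -0.59 (SE 0.10), the kinase Prpf4b by -0.71 (SE 0.12), and Prpf38b by -0.65 (SE 0.19). The Prpf38b call was lost without wild-type polysomal array 2 (-0.56, limma adjusted p = 0.079). Members of the same ring thus stood on both sides, with Snrpb at 2.20 and Snrpd3 at 2.83 above, and Snrpe and Snrpg below.

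In knockout Srsf10 (-0.53, SE 0.15), Snrpe (-0.46, SE 0.12), Snrpg (-0.50, SE 0.12) and Ddx31 (-0.61, SE 0.09) were again lower on polysomes. Prpf39 (-0.17), Ddx52 (-0.15), Ddx50 (-0.12), Prpf4b (-0.04) and Prpf38b (0.05) did not pass there. Hnrnpd and Ddx5 passed in opposite directions in the genotypes. Hnrnpd, which binds AU-rich elements, was at -0.43 in wild type (SE 0.12) and 0.40 in knockout (SE 0.11), and Ddx5, a helicase of splicing and transcription, at -0.29 (SE 0.12) and 0.31 (SE 0.10). The Ddx5 call in wild type was lost without any of 9 arrays (limma adjusted p of 0.055 to 0.18) and in knockout without any of 3 (0.058 to 0.085).

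**Figure D2:**
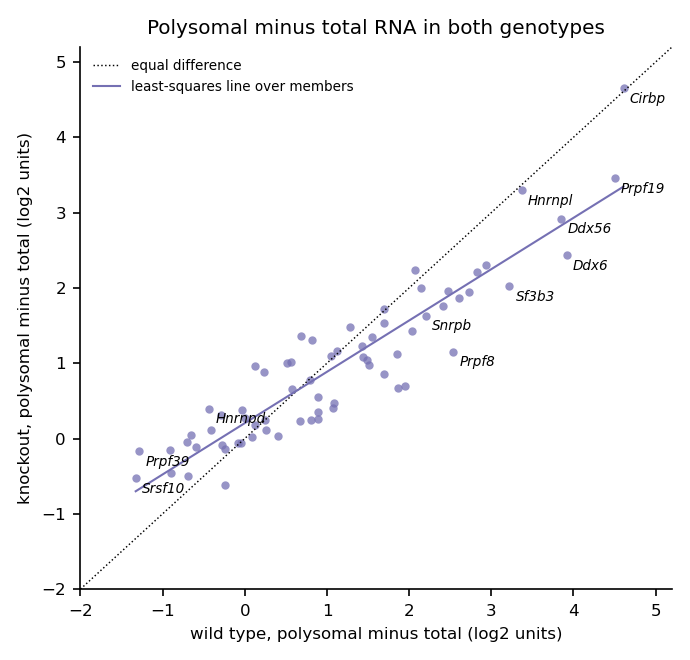
Polysomal minus total RNA of the 69 tested members in wild type (horizontal axis) and knockout (vertical axis), in log2 units. The dotted line marks equal differences and the solid line is the least-squares line with slope 0.68. Cirbp and Hnrnpl lie near the dotted line, Ddx6, Sf3b3 and Prpf8 below it.

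Over the 69 members the knockout difference followed the wild-type difference with a slope of 0.68 (r = 0.92, no test, because genes are not independent replicates), and 50 of the 69 had the smaller size in knockout. Over all 8085 tested genes the slope was also 0.68 and 72.2% had the smaller size, against 72.5% of the members. By this measure the narrowing among splicing factors and helicases was that of genes at large. The difference had no rank relation to gene length over the members (rho of -0.00 in wild type and -0.10 in knockout, given as a description).

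In total RNA the knockout had more message of several SF3 subunits, of the Sm protein Snrpd3 and of the helicase Ddx6, and less of Prpf39 and Srsf10. Of 69 members 14 rose, 6 fell and 49 did not pass, where 17.2% of all tested genes rose and 5.97% fell, together 23.2%. The members' shares, 20.3% and 8.7%, lay close to those, and their median of 0.11 close to the 0.09 of all tested genes. The 5 largest rises were 2-fold or more. The arrays of both genotypes did not overlap for any member that passed, which again was not counted over all tested genes. The labels give the arrays a set letter that they do not explain. All 20 differences had the same sign within letter A and within letter B. This follows from the lack of overlap and is no separate check. Without knockout total array 2 the count was 9 and without wild-type total array 1 it was 13. By role, 3 of 6 SF3 subunits rose and none fell (median 0.50), 2 of the 3 helicases of translation, storage and decay rose, and 1 of 8 SR proteins fell and none rose.

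Ddx6 rose the most. Its wild-type total values were 8.77, 8.27 and 8.53 and its knockout values 9.22, 10.25 and 9.96, so that all knockout arrays lay above all wild-type arrays. The difference was 1.29 (SE 0.23, n = 3 and 3, limma adjusted p = 0.0051). Sf3b5 read 8.15, 8.21 and 8.05 in wild type and 9.08, 9.38 and 9.11 in knockout, a rise of 1.06 (SE 0.14, limma adjusted p = 0.0014). Sf3b3 was nearly the same on the wild-type arrays, at 8.38, 8.40 and 8.38, and read 9.25, 9.37 and 8.95 in knockout, a rise of 0.80 (SE 0.11, limma adjusted p = 0.002). No knockout array of either subunit was as low as any wild-type array. Snrpd3 read 9.85, 9.68 and 9.19 in wild type and 10.44, 10.88 and 10.58 in knockout, a rise of 1.06 (SE 0.18). Sf3b2, another subunit of the branch point complex, rose by 0.40 (SE 0.10), while Sf3b1, the largest subunit, did not pass (-0.14, SE 0.09, limma adjusted p = 0.30).

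Among the other rises, Hnrnpr, a close relative of SYNCRIP, read 11.51, 11.24 and 11.34 in wild type and 12.03, 12.74 and 12.38 in knockout, a rise of 1.02 (SE 0.23). Hnrnpu, the scaffold attachment factor, read 8.56, 8.18 and 8.39 in wild type and 8.98, 9.21 and 9.21 in knockout, a rise of 0.76 (SE 0.15). The Hnrnpr call was lost without knockout total array 2 (0.84, limma adjusted p = 0.055). The ribosome assembly helicases Ddx24 (0.69, SE 0.22) and Ddx47 (0.55, SE 0.17) and the helicase Ddx1 (0.54, SE 0.17), part of the tRNA ligase complex, passed narrowly. Their calls were lost without any of 10, 8 and 8 arrays (limma adjusted p of 0.057 to 0.13, 0.057 to 0.15 and 0.06 to 0.14). Another 4 rises were of 0.35 to 0.40.

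Prpf39 fell by 0.87 (SE 0.18, limma adjusted p = 0.0091), from 7.05, 6.93 and 6.51 in wild type to 6.20, 5.67 and 5.99 in knockout. Srsf10 fell by 0.72 (SE 0.15, limma adjusted p = 0.0082), from 9.07, 9.03 and 8.82 to 8.49, 8.03 and 8.23. Neither gene had a knockout array as high as its lowest wild-type array. Prpf38b fell by 0.67 (SE 0.17), Ddx20, the Gemin3 subunit of the SMN complex that assembles Sm rings, by 0.58 (SE 0.12), the nucleolar helicase Ddx50 by 0.38 (SE 0.09), and Hnrnph1, which binds runs of G, by 0.35 (SE 0.10). The Prpf38b call was lost without wild-type total array 1 (-0.65, limma adjusted p = 0.071) or knockout total array 2 (-0.51, adjusted p = 0.079), and the Ddx50 call without knockout total array 1 (-0.34, adjusted p = 0.055). The Hnrnph1 call was lost without any of 4 arrays (limma adjusted p of 0.053 to 0.12).

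Several widely studied members did not pass in total RNA. Srsf2, a nuclear SR protein, was at 0.00 (SE 0.07), Srsf3, an adaptor of mRNA export, at -0.11 (SE 0.09), and Snrpb, the core Sm protein, at 0.25 (SE 0.11). Srsf1, the founding SR protein, was at -0.29 (SE 0.09, limma adjusted p = 0.057) and passed without wild-type total array 3 or either wild-type polysomal array (limma adjusted p of 0.035 to 0.043). Hnrnpa2b1 (-0.31, SE 0.16) passed without knockout total array 3 (-0.49, limma adjusted p = 0.043), and Ddx3x, a helicase that helps translation of structured messages, at 0.38 (SE 0.14), passed without wild-type total array 2 (0.51, adjusted p = 0.029). Prpf8, the largest protein of the catalytic centre, read 8.87, 9.43 and 7.31 in wild type and 9.42, 9.11 and 9.23 in knockout (0.72, SE 0.43, limma adjusted p = 0.26). Wild-type total array 3 was lower than both others by over 0.5 for 6 members, among them Prpf8, Prpf38a, Ddx1, Ddx18 and Ddx24, and higher by over 0.5 for Cirbp and Hnrnpl.

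**Figure D3:**
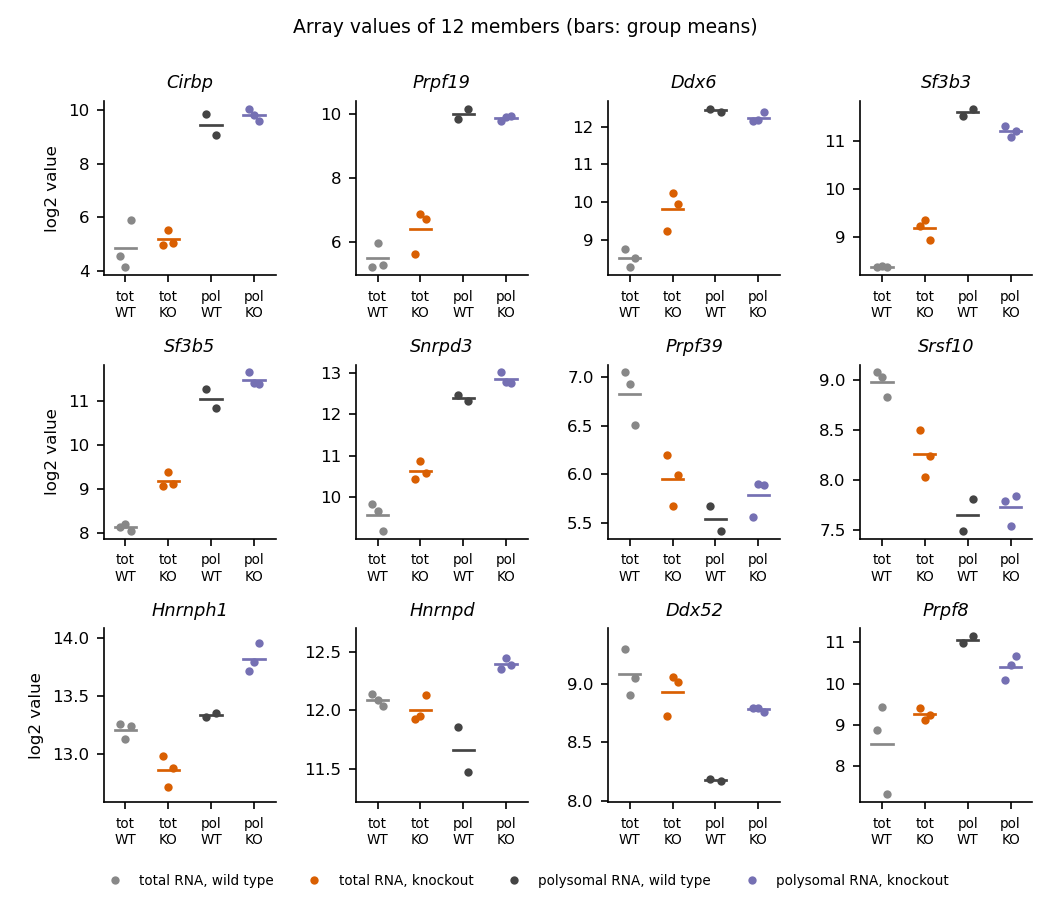
Values of 12 members on every array in log2 units (vertical axes, which differ in range and do not start at 0), for total (tot) and polysomal (pol) RNA of wild type (WT) and knockout (KO). Bars are group means. Ddx6, Sf3b3, Sf3b5 and Snrpd3 are higher in knockout than in wild type in total RNA, and Hnrnph1, Hnrnpd and Ddx52 are higher in knockout on polysomes.

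On polysomes fewer members passed by genotype than in total RNA (11.6% against 29%), and they were mostly other genes. Over all tested genes the share was also smaller, at 15.1% against 23.2%. The polysomal comparison has 2 wild-type arrays, and its median SE over the members was 0.137 against 0.123 in total RNA. Of 69 members 7 rose, 1 fell and 61 did not pass, where 8.36% of all tested genes rose and 6.77% fell, together 15.1%, and none of the 8 differences was 2-fold. All 8 had the same sign within letter B and within letter C. Their arrays did not overlap between genotypes, so this sign was fixed and is no separate check. With quantile normalization 6 rose and 2 fell. Without either wild-type polysomal array 2 passed, without knockout polysomal array 1 or 2 there were 4, and without wild-type total array 3 there were 13. The members' median was 0.01 and that of all tested genes -0.01. Both hnRNP proteins that passed and both snRNP proteins that passed rose, and no SR protein, SF3 subunit or helicase of translation and decay passed. Of the 20 members that passed in total RNA and the 8 that passed on polysomes, 1 was shared, Hnrnph1, which fell in total RNA and rose on polysomes. The group means of these 2 comparisons rest on separate arrays, but the spread of each gene was estimated over all arrays together. Leaving out a total array therefore changed calls on polysomes, and the calls in the 2 RNA kinds are not independent tests.

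Hnrnpd read 11.86 and 11.47 on wild-type polysomes and 12.36, 12.45 and 12.39 on knockout polysomes, a rise of 0.74 (SE 0.12, n = 2 and 3, limma adjusted p = 0.005), and its call was kept whichever array was left out. Ddx52 read 8.18 and 8.17 in wild type and 8.80, 8.80 and 8.76 in knockout, a rise of 0.61 (SE 0.13). Snrpe read 13.51 and 13.49 in wild type and 14.13, 14.07 and 14.03 in knockout, a rise of 0.57 (SE 0.13). In each of them the knockout arrays lay close together and above both wild-type arrays. Hnrnph1 read 13.32 and 13.35 against 13.71, 13.79 and 13.95, a rise of 0.48 (SE 0.11). Snrpa1, a protein of the U2 particle (0.49, SE 0.14), Prpf4b, a kinase of splicing factors (0.49, SE 0.12), and Ddx5 (0.46, SE 0.12) also rose. Ddx31, a nucleolar helicase, fell by 0.43 (SE 0.10), from 6.64 and 6.66 to 6.33, 6.07 and 6.25.

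With 2 wild-type polysomal arrays these calls were easily lost. Without wild-type polysomal array 1 or 2, the limma adjusted p was 0.068 and 0.078 for Ddx52, 0.072 and 0.085 for Snrpe, 0.081 and 0.073 for Hnrnph1, and 0.066 and 0.08 for Ddx31. The calls of Prpf4b, Ddx5 and Snrpa1 were lost without any of 4, 5 and 9 arrays (limma adjusted p up to 0.16, 0.13 and 0.22). Among members that did not pass, Ddx3x was at 0.44 (SE 0.15) and passed without wild-type total array 3 (limma adjusted p = 0.019), Sf3b3 was at -0.39 (SE 0.13) and passed without knockout total array 3 (adjusted p = 0.043), and Prpf8 was at -0.66 (SE 0.48). Srsf4, the SR protein with the smallest p, was at -0.35 (SE 0.13, limma adjusted p = 0.094).

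**Figure D4:**
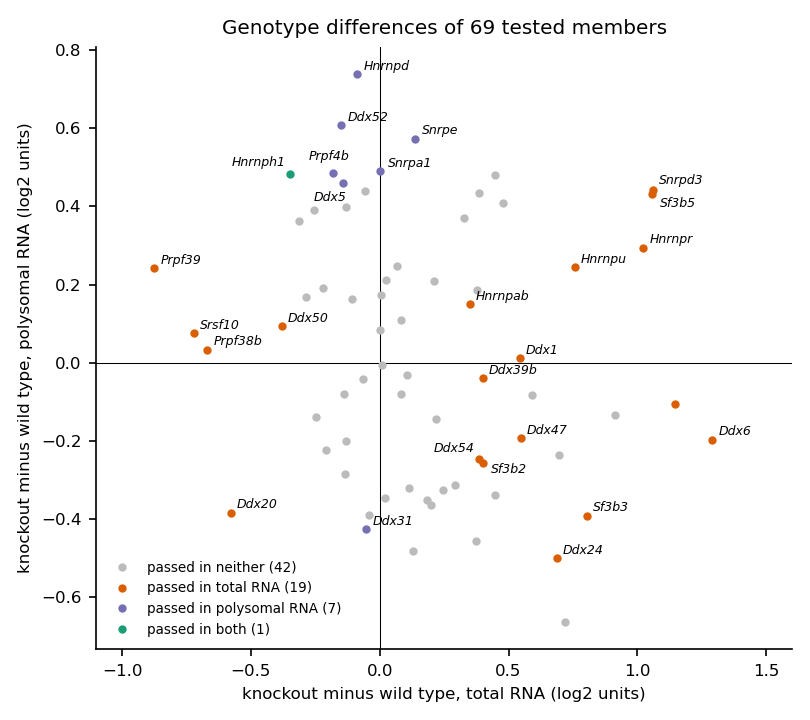
Knockout minus wild type in total RNA (horizontal axis) and in polysomal RNA (vertical axis) for the 69 tested members, in log2 units, with names beside most points past the threshold. Of the members, 19 passed in total RNA alone, 7 in polysomal RNA alone, and 1, Hnrnph1, in both.

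For some members the genotype difference on polysomes was itself unlike that in total RNA. This interaction, polysomal difference minus total difference, passed for 18 of 69 members, 10 upward and 8 downward, where 8.06% of all tested genes passed upward and 14.2% downward, together 22.3%. With quantile normalization the split was 12 upward and 6 downward. Without wild-type total array 1 or either wild-type polysomal array 9 passed, and without knockout total array 2 there were 11. The upward genes were 3 hnRNP proteins, 2 SR proteins, 2 PRP factors and 3 helicases. The downward ones were 2 SF3 subunits, the PRP factor Prpf31, the Sm protein Snrpb and 4 helicases. The interaction shares arrays with both genotype comparisons, so the values of each are given side by side. It also equals the change in the polysomal minus total gap, which narrowed in knockout over all tested genes (slope 0.68). All 8 downward members were higher on wild-type polysomes, and 7 of the 10 upward members were lower there. The part of that general narrowing in the interaction of each member was not tested.

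Downward, Ddx6 had 1.29 in total RNA and -0.20 on polysomes (interaction -1.49, SE 0.35, limma adjusted p = 0.018), with 12.48 and 12.40 on wild-type and 12.16, 12.18 and 12.39 on knockout polysomes. Sf3b3 had 0.80 and -0.39 (interaction -1.20, SE 0.17, limma adjusted p = 0.004), with 11.53 and 11.68 against 11.32, 11.10 and 11.22 on polysomes. In these 2 genes the knockout exceeded the wild type on every total array and on no polysomal array. Sf3b2 (0.40 and -0.26, interaction -0.66, SE 0.15) and Ddx54, a helicase of ribosome assembly (0.39 and -0.25, interaction -0.63, SE 0.13), also had a positive difference in total RNA and a negative one on polysomes, where neither passed. Sf3b5 had 1.06 in total RNA and 0.43 on polysomes, where it did not pass (limma adjusted p = 0.088), and its interaction of -0.63 did not pass either (adjusted p = 0.055). Ddx24 (-1.19, SE 0.33), the PRP factor Prpf31 (-0.79, SE 0.22), Snrpb (-0.57, SE 0.16) and Ddx39b, the export helicase UAP56 (-0.44, SE 0.13), also passed downward. Prpf8 was at -1.38 (SE 0.65) and did not pass, though it did without wild-type total array 2 (-1.83, limma adjusted p = 0.042).

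Upward, Prpf39 had -0.87 in total RNA and 0.24 on polysomes (interaction 1.12, SE 0.27, limma adjusted p = 0.02), with 5.67 and 5.42 on wild-type and 5.56, 5.90 and 5.89 on knockout polysomes. Hnrnph1 had -0.35 and 0.48 (interaction 0.83, SE 0.15, limma adjusted p = 0.0068) and Hnrnpd -0.09 and 0.74 (interaction 0.83, SE 0.16, adjusted p = 0.0096). Hnrnph1 changed in both RNA kinds in opposite directions. Hnrnpd passed on polysomes and not in total RNA, and Prpf39 passed in total RNA and not on polysomes. A difference that did not pass is not shown to be absent. Srsf10 (0.80, SE 0.22), Ddx52 (0.76, SE 0.18), Prpf4b (0.67, SE 0.16), Ddx5 (0.60, SE 0.15), Ddx50 (0.47, SE 0.14) and Srsf1 (0.45, SE 0.14) were further members past the threshold. Hnrnpa2b1, at 0.68 (SE 0.24, limma adjusted p = 0.071), passed without knockout total array 3 (0.85, adjusted p = 0.023).

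The interaction calls of Sf3b3, Ddx54, Hnrnpd and Hnrnph1 were kept whichever array was left out. Those of Sf3b2, Ddx52 and Prpf39 were lost without wild-type polysomal array 2 (limma adjusted p of 0.054, 0.055 and 0.074), and that of Ddx6 without either wild-type polysomal array (-1.45 and -1.52, adjusted p up to 0.052). Prpf4b was lost without 2 arrays and Ddx5 without 3 (limma adjusted p up to 0.073 and 0.076). For Ddx24, Snrpb, Srsf10, Prpf31, Ddx39b, Ddx50 and Srsf1, leaving out any of 7 to 9 arrays ended the call (limma adjusted p up to 0.15). Dropping the filter on low values ended the interaction calls of Ddx24, Prpf31 and Srsf10, and quantile normalization those of Ddx39b, Prpf31 and Snrpb.

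**Figure D5:**
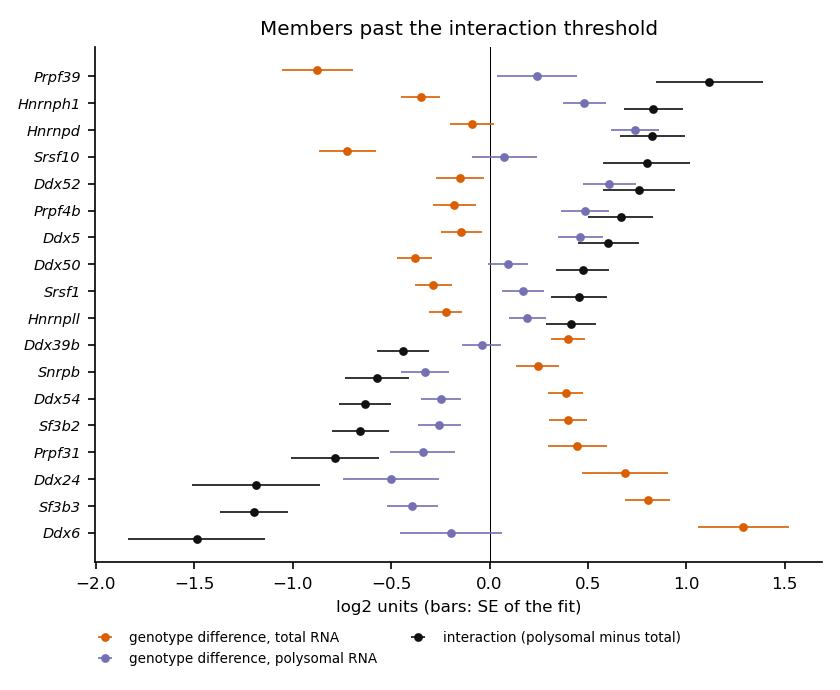
Genotype difference in total RNA, genotype difference in polysomal RNA and their difference (the interaction) for the 18 members past the interaction threshold, in log2 units with bars for the SE of the fit. Ddx6 lies farthest down at -1.49 and Prpf39 farthest up at 1.12.

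Related genes outside the symbol rule were counted in the same fit. Of 46 tested further spliceosome proteins 11 rose and 3 fell in total RNA, and 3 rose and 2 fell on polysomes. Their medians were 0.09 and -0.01, as over all tested genes, and for this and the following lists the shares over all tested genes are 17.2% higher and 5.97% lower in total RNA and 8.36% and 6.77% on polysomes. Eftud2, the GTPase of the U5 particle, rose by 0.77 in total RNA (SE 0.11), and Puf60, a partner of U2AF at the branch point, by 0.67 (SE 0.11), and Puf60 fell by 0.48 on polysomes (SE 0.12). Zrsr2, which reads the splice sites of minor introns, rose by 1.02 on polysomes (SE 0.11). Of 27 further splicing regulators 2 rose and 3 fell in total RNA, and 6 rose and 1 fell on polysomes. The neuronal repressor Ptbp2 fell by 0.77 in total RNA (SE 0.23), the STAR protein Qk rose by 1.23 on polysomes (SE 0.16), and the U1-associated Luc7l fell by 1.26 there (SE 0.19).

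Of 16 other RNA helicases, mostly of the DEAH family, 3 rose in total RNA and none fell, among them the splicing helicase Dhx16 (0.59, SE 0.12) and Skiv2l, which feeds RNA to the cytoplasmic exosome (0.89, SE 0.18). Ifih1, a sensor of viral RNA, rose by 0.53 on polysomes (SE 0.15). Of 8 tested genes of the SMN complex and its methylation partners, Gemin7 (0.87, SE 0.16) and the methyltransferase Prmt5 (1.01, SE 0.26) rose and Gemin6 fell by 0.78 (SE 0.20) in total RNA, while on polysomes none passed (limma). Of 6 tested genes of nonsense-mediated decay, Upf3b and Pnrc2 fell in total RNA, by 0.68 (SE 0.20) and 0.37 (SE 0.08), and rose on polysomes, by 0.84 (SE 0.22) and 1.06 (SE 0.09). Of 6 kinases of SR proteins, Clk3 rose by 0.44 in total RNA (SE 0.13), and on polysomes the single call was Prpf4b, itself one of the members.

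Stress and clock genes stood beside these results, because Srsf10 is known to respond to heat shock and Cirbp to the daily rhythm. Of 10 tested heat shock genes 2 rose and 1 fell in total RNA, and 4 fell on polysomes, among them Hspa1a, which fell by 3.27 in total RNA (SE 0.67) and 4.64 on polysomes (SE 0.74). Of 9 tested clock genes 1 rose and 1 fell in total RNA, and 1 rose and 4 fell on polysomes. Over all tested genes 17.2% rose and 5.97% fell in total RNA, and 8.36% rose and 6.77% fell on polysomes. The median differences in total RNA and on polysomes were -0.22 and -0.55 for the heat shock genes and -0.08 and -0.43 for the clock genes, against 0.09 and -0.01 over all tested genes. The part of either in the differences of Srsf10, Cirbp or the other members was not tested.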

How the data were processed

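The deposited table holds 1 log2 value per probe set and array, made by the authors with GCRMA, per the submitters' processing notes. The version, the grouping of probes and whether all arrays were summarised together are not given in the sources used here. That the scale is log2 follows from the values, which span 0.73 to 16.7 with array medians of 4.96 to 5.04. The labels' protocols give 100 ng as the RNA input and 2 rounds of amplification. Probe sets are named by RefSeq accession, and 15228 of 26180 matched a single gene in the RefSeq table of GRCm38.p6, while 10952 were unmatched and 7538 repeated another row.

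Tests covered the 13802 probe sets (8085 genes) that reached 5 on at least 2 of 11 arrays, and the brightest probe set by mean stood for its gene. Group means were estimated over all 11 arrays in limma 3.58.1 (R 4.3.3), which left 7 residual degrees of freedom beside a prior of 2.67. Tests were two-sided with Benjamini-Hochberg adjustment over all tested probe sets, and an adjusted p below 0.05 was called. The few arrays limit the precision. The fit was first tested on simulated data. Start sequences came from RefSeq, and protein sequences were not used here. Figures were drawn with matplotlib 3.10.9.

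The members and the comparison lists were chosen with earlier results of these data known, so no p-value was adjusted over a list and no list was tested. Named members were a fixed set of well-known ones, up to 10 per direction in each genotype comparison and up to 8 in the interaction and in wild-type polysomal minus total RNA, by size among calls without overlap of arrays (a condition not set for the interaction), and the smallest p of each role group. Up to 4 members of each comparison list were named by smallest p. Some genes that this rule names are not reported here. Ddx17 and Hnrnpa2b1 had several distinct probe sets, and none was called in opposite directions. Alternatives were other filters, trend moderation, quantile normalization, equal medians, set letter as a block, stricter calls, separate fits, averaged probe sets and leaving out each array. Whether the set letters pair the arrays is not known. Deviations from group means of same-letter arrays in different groups correlated at -0.071 to 0.089 within an RNA kind. Across RNA kinds they correlated at -0.17 to 0.32. With 2 or 3 arrays per group these deviations constrain each other, so the correlations cannot decide whether the letters pair the arrays.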

Additional observations from a re-analysis of the deposited data

Results flagged for a closer look

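The interaction passed for 18 of 69 tested members (26.1%), where 22.3% of all tested genes passed. For 17 named members the genotype difference in polysomal minus total RNA passed its own test (limma interaction, adjusted p of 0.004 to 0.047). By that test the effect of genotype differed between the RNA kinds. Downward these were Ddx6 (-1.49), Sf3b3 (-1.20), Ddx24 (-1.19), Prpf31 (-0.79), Sf3b2 (-0.66), Ddx54 (-0.63), Snrpb (-0.57) and Ddx39b (-0.44). Upward they were Prpf39 (1.12), Hnrnph1 (0.83), Hnrnpd (0.83), Srsf10 (0.80), Ddx52 (0.76), Prpf4b (0.67), Ddx5 (0.60), Ddx50 (0.47) and Srsf1 (0.45). Among them Sf3b3, Ddx54, Hnrnpd and Hnrnph1 kept the call whichever array was left out, and each of the others lost it without at least 1 array. The narrowing over all tested genes (slope 0.68) was not taken out of these values.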

How the results depend on the processing

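The main counts were 20 members in total RNA, 8 on polysomes, 18 in the interaction, and 58 and 51 in polysomal minus total RNA of wild type and knockout. At an adjusted p under 0.01 the first 3 counts were 7, 1 and 3. With a minimum fold of 1.5, 11 were called in total RNA and 2 on polysomes. Fitting the groups compared alone gave 4 on polysomes, and the interaction has no such fit. A replicate block by set letter gave 17, 8, 10, 54 and 47 members, and a replicate block within RNA kind 14, 4, 7, 45 and 37. Among the named interaction calls, at least 1 of these blocks ended those of Ddx6, Sf3b2, Ddx52, Prpf39, Prpf4b, Ddx5, Ddx50, Ddx39b, Prpf31, Snrpb and Srsf1. Leaving out 1 array gave 9 (without knockout total array 2) to 22 in total RNA, with 13 without wild-type total array 1, and 2 (without either wild-type polysomal array) to 13 (without wild-type total array 3) on polysomes, with 4 without knockout polysomal array 1 or 2. For the interaction the range was 9 (without wild-type total array 1 or either wild-type polysomal array) to 21, with 11 without knockout total array 2, and for polysomal minus total RNA 51 to 57 in wild type and 46 to 51 in knockout. A lone wild-type polysomal array is assumed to vary like the other groups. Quantile normalization turned the sign of Srsf3 in polysomal minus total RNA, to -0.43 in wild type and -0.077 in knockout. Of the other named values under all alternatives, 2493 kept side and direction, 279 lost the call, 17 gained it and 14 moved. Low signal limits Hnrnpl, Ddx56 and Ddx41, and in total RNA also Cirbp.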

Other observations

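The following members were picked out after their values were seen. Ddx17, the paralog of Ddx5, read 13.63 to 14.09 on all 11 arrays and passed in no comparison, while Ddx5 passed in both comparisons of polysomal with total RNA, on polysomes by genotype and in the interaction. Sf3b6, a small subunit at the branch point, differed by 0.11 between genotypes in total RNA and by -0.03 on polysomes, unlike the other small subunit Sf3b5 (1.06 and 0.43), and whether these subunits differ was not tested. Hnrnpm and Hnrnpc, abundant nuclear hnRNP proteins, were higher on polysomes by 2.07 (SE 0.14) and 1.70 (SE 0.12) in wild type and by 2.24 (SE 0.13) and 1.54 (SE 0.11) in knockout, and their genotype differences did not pass (0.00 and 0.08 in total RNA, 0.17 and -0.08 on polysomes). Snrpb2 and Snrpa1, the partner proteins of U2, were higher on polysomes by 0.82 and 0.52 in wild type and by 1.31 and 1.01 in knockout, and Snrpa1 also rose by genotype on polysomes (0.49).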
